A study of Mus musculus with 12 samples.

Results

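Brain and spinal cord of SMA mouse embryos were compared for ribosome occupancy, the number of ribosome-protected mRNA fragments on each gene. The members were the 6 SMA libraries of a series of 12, 3 from brain and 3 from spinal cord, read over all 10481 genes of the deposited table. The embryos were of the Taiwanese model of spinal muscular atrophy at E14.5 and carried the genotype Smn-/-; SMN2tg/0, that is, no mouse Smn and a human SMN2 transgene. Controls were Smn+/-; SMN2tg/0 embryos of the same age, so the transgene was present in every group and controls themselves had 1 intact Smn allele. They were used here for the same comparison between tissues and in the fits over all 12 libraries. The labels name no drug or other agent. Tissues were snap-frozen, and cytoplasmic lysates were digested with RNase. There were 3 embryos per genotype and 3 libraries per tissue, and the sources used here do not say whether a brain and a spinal cord library came from the same embryo. No name at hand pairs with the Smn row, which was not analysed here, so genotype rests on the labels. The comparison asks which genes were occupied differently by ribosomes in the brain and the spinal cord of the same kind of embryo.

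Brain and spinal cord form from the same neural tube and are told apart along its length by transcription factors. Hox genes are expressed in the hindbrain and spinal cord and assign position along the body axis, and Lhx2, Otx2 and their partners pattern the forebrain and midbrain. Neurons form earlier in the spinal cord than in the cerebral cortex, where progenitors go on dividing through midgestation, and spinal motor neurons are the cells lost in spinal muscular atrophy. Footprints rise with more mRNA and with denser ribosomes alike, and no mRNA levels were used here to tell these apart. In whole tissue, fewer cells of a type and less mRNA per cell cannot be told apart either. Levels are footprint counts scaled to the library total (CPM) after TMM normalization, listed in the order of libraries 1, 2 and 3. Fold changes are log2 of brain over spinal cord, so positive values are higher in brain, and a gene was called at an adjusted p below 0.05 in edgeR.

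Library totals lay between 3683842 and 5406430 counts in SMA brain and between 5162190 and 8027322 in SMA spinal cord. Log CPM values of the SMA brain libraries correlated at 0.978 to 0.985. SMA spinal cord library 1 stood apart from its group, with correlations of 0.936 and 0.949 to libraries 2 and 3, which correlated at 0.986 with each other. It correlated at 0.983 with control spinal cord library 3. Of 9781 genes, 138 lay at least 4 times above both other SMA spinal cord libraries in SMA library 1, against 0 in libraries 2 and 3. Liver transcripts were among the genes that stood out in it. Results that rest on that library are given with and without it. Where a call was lost without some library, the range given beside it is that of the log2 fold change over the 6 fits that each left out 1 SMA library. Without it, 3583 genes were called, 1662 higher in brain and 1921 higher in spinal cord.

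With all 6 libraries, 3849 genes were called, 36.7% of the 10481 tested. Ribosome occupancy was higher in brain for 1805 genes (17.2%) and higher in spinal cord for 2044 (19.5%). Upper-quartile scaling in place of TMM turned this split around, with 2315 genes higher in brain and 1709 higher in spinal cord, so which tissue held more calls depended on the scaling. Calls with a log2 fold change of 1 or more in size numbered 1088 (10.4%), of which 448 (4.27%) were higher in brain and 640 (6.11%) higher in spinal cord. The median log2 fold change over all genes was -0.03. The 3 brain libraries and the 3 spinal cord libraries did not overlap for 5173 of the 9599 genes whose mean reached 20 counts (53.9%). Gene names were at hand for 1999 genes, and 809 of these were called (40.5%), 346 higher in brain (17.3%) and 463 higher in spinal cord (23.2%). The named members of each gene list are read against these shares.

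**Figure D1:**
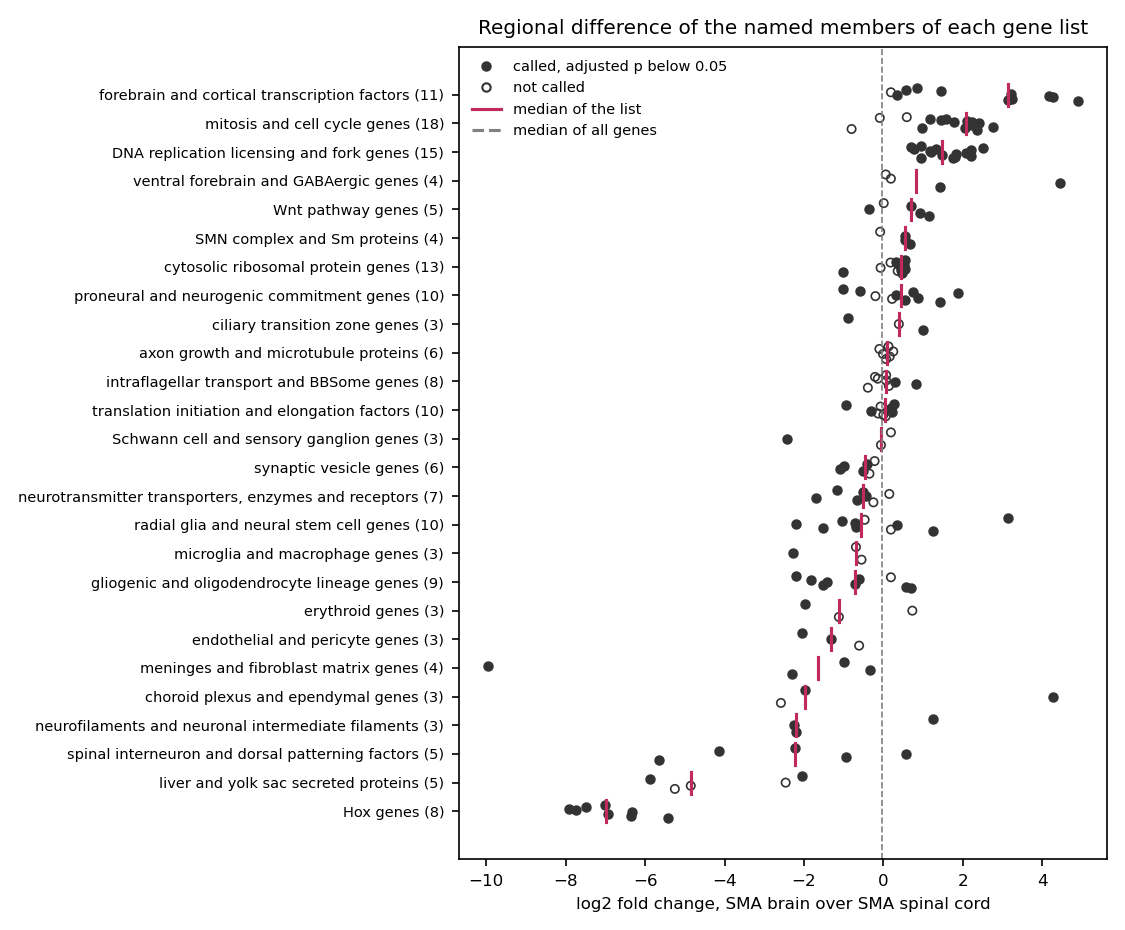
Log2 fold change of SMA brain over SMA spinal cord for the named members of each gene list with at least 3 such members, whose number stands in parentheses. Filled points passed an adjusted p of 0.05, open points did not, red bars are list medians and the dashed line is the median of all genes. The Hox median lies farthest toward spinal cord and the median of forebrain transcription factors farthest toward brain, and the point near -10 is Aldh1a2, which had no footprint in SMA brain and whose fitted value depends on the prior count.

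Hox genes had the lowest median fold change of the lists with at least 3 named members. All 8 named members, of 39 listed, were called higher in spinal cord, with a median log2 fold change of -6.98 against -0.03 over all genes. Their summed level was 3.8 to 5.51 CPM in the brain libraries and 427 to 607 CPM in the spinal cord libraries. Hoxc6 (chr15:102998226-103011882 on GRCm38.p6) held 0.271, 0.184 and 0.551 CPM in SMA brain and 76.2, 84.4 and 84 CPM in SMA spinal cord. The spinal cord values lay close together and far above every brain value (log2 fold change -7.92 ± 0.22 (SE), adjusted p = 4.19e-06). These levels were 4 footprints in the 3 brain libraries together against 1571 in spinal cord, a ratio of 258 with a 95% counting interval of 101 to 948. Its neighbors on the same cluster were alike. Hoxc5 (chr15:103014008-103017429) held 0, 0.367 and 0 CPM in brain and 33.7, 39.2 and 40.8 CPM in spinal cord, and Hoxc8 (chr15:102990539-102994275) held 0.271, 0.919 and 0 CPM and 74.3, 106 and 83.8 CPM. Hoxc10 (chr15:102966796-102971898), a factor of the lumbar cord, held 0.543, 0 and 0.551 CPM and 37.8, 42.3 and 51.5 CPM. In each of these genes the lowest spinal cord library lay far above the highest brain library.

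Members of the other clusters followed the same order. Hoxb9 (chr11:96271330-96276595), a factor of thoracic levels, held 1.36, 1.47 and 1.65 CPM in brain and 78.1, 152 and 135 CPM in spinal cord. Hoxb6 held 0.543, 0.367 and 1.65 CPM in brain and 65.6, 121 and 114 CPM in spinal cord. For both genes SMA spinal cord library 1 was the lowest of its group, while for Hoxc6 the 3 spinal cord libraries were close to each other. Hoxa10 held 0.271, 0.919 and 0.275 CPM in brain and 37.7, 39.4 and 61.9 CPM in spinal cord, where library 3 was the highest. Hoxa4, expressed farther toward the head, held 0.543, 0.184 and 0.826 CPM in brain and 23.4, 23.3 and 17.7 CPM in spinal cord and had the smallest difference of the 8 (log2 fold change -5.42 ± 0.38 (SE), adjusted p = 4.12e-05). All 8 were called in each fit that left out 1 library and in control embryos, so the Hox markers of spinal cord were present in the libraries of that label and nearly absent from brain.

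**Figure D2:**
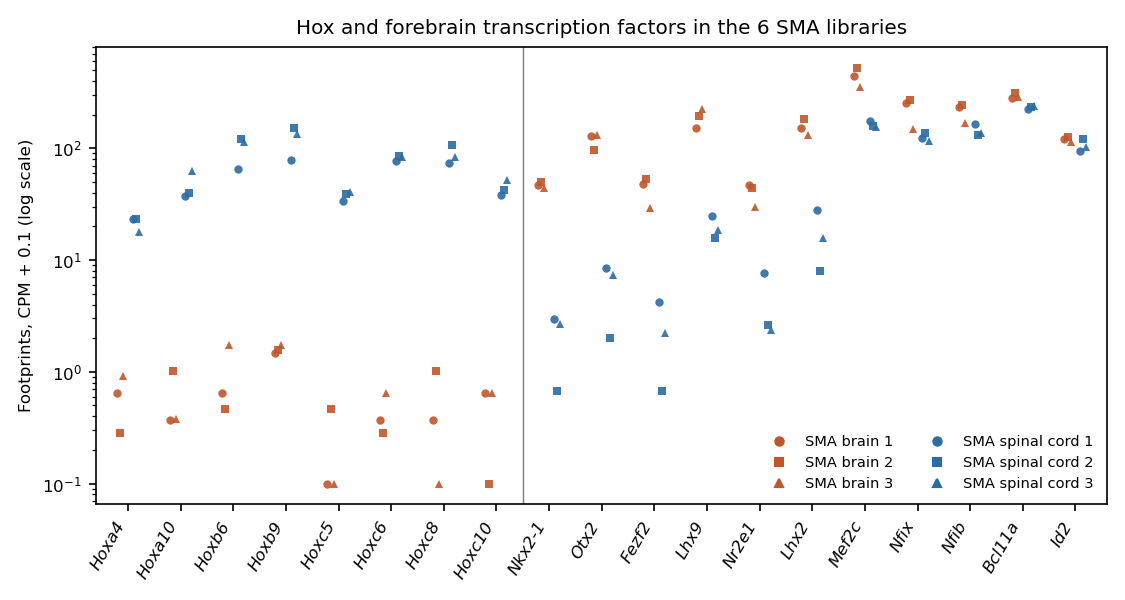
CPM + 0.1 on a log scale for the 8 named Hox genes (left of the line) and for 10 of 11 forebrain and cortical transcription factors and Nkx2-1 (right), with 1 point for each of the 6 SMA libraries. The tissues do not overlap for any Hox gene, nor for the factors on the right other than Id2.

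Forebrain and cortical transcription factors lay on the opposite side. Of 11 named members, 10 were called higher in brain and 0 higher in spinal cord, with a median log2 fold change of 3.14. Otx2 (chr14:48656781-48667644), a forebrain and midbrain factor, held 129, 96.7 and 132 CPM in SMA brain and 8.43, 1.92 and 7.31 CPM in SMA spinal cord (log2 fold change 4.27 ± 0.36 (SE), adjusted p = 0.000103). Fezf2, which specifies corticospinal projection neurons, held 48, 53.5 and 29.2 CPM and 4.09, 0.577 and 2.11 CPM. In both of them spinal cord library 1 was the highest of its group and library 2 the lowest. Lhx2 (chr2:38339271-38369737), a factor of cortical progenitors, held 152, 183 and 132 CPM in brain and 27.9, 7.89 and 15.6 CPM in spinal cord. Lhx9 held 152, 194 and 224 CPM and 24.9, 15.8 and 18.5 CPM. Nr2e1, which keeps neural stem cells dividing, held 46.9, 44.1 and 29.5 CPM and 7.56, 2.5 and 2.27 CPM. Without spinal cord library 1 the log2 fold changes of Otx2, Fezf2, Lhx2, Lhx9 and Nr2e1 were 4.62, 4.94, 3.71, 3.46 and 4.07, each above its value with all 6 libraries.

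The factors shared by both tissues differed less. Mef2c, a factor of maturing neurons, held 444, 525 and 355 CPM in brain and 177, 157 and 155 CPM in spinal cord (log2 fold change 1.44 ± 0.14 (SE), adjusted p = 0.000228). Nuclear factor I genes, which drive the move from neurogenesis to gliogenesis, were higher in brain by 0.84, adjusted p = 0.0151 for Nfix and 0.57, adjusted p = 0.0228 for Nfib. The call of Nfib was lost without SMA brain library 1 or 2 or without SMA spinal cord library 2 or 3, with a log2 fold change of 0.49 to 0.73 over the fits that left out 1 library. The call of Nfix was lost without SMA brain library 1 or 2 (log2 fold change 0.68 to 1.07). Bcl11a was called with a small difference of 0.34, which did not pass without SMA brain library 2 (0.30), and Id2 did not pass (0.19, adjusted p = 0.226). Among 4 named genes of the ventral forebrain and its GABAergic neurons, 2 were called higher in brain, Nkx2-1 among them. Nkx2-1 (chr12:56531935-56536908), a factor of the medial ganglionic eminence and hypothalamus, held 46.4, 50 and 43.8 CPM in brain and 2.85, 0.577 and 2.6 CPM in spinal cord (log2 fold change 4.46 ± 0.36 (SE), adjusted p = 8.34e-05). Sst, the neuropeptide somatostatin, overlapped between the tissues, with 43.1, 42.8 and 55.6 CPM and 39.9, 47.3 and 48.1 CPM.

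Transcription factors of spinal interneurons and the dorsal spinal cord were higher in spinal cord in 4 of 5 named members, with a median log2 fold change of -2.22. Pax2 (chr19:44746601-44838269), a factor of inhibitory interneurons that is also expressed at the midbrain-hindbrain boundary, held 5.7, 0.735 and 2.75 CPM in SMA brain and 142, 141 and 143 CPM in SMA spinal cord (log2 fold change -5.65 ± 0.37 (SE), adjusted p = 3.32e-05). Its 3 spinal cord libraries had an SD of 1.21 CPM, and brain libraries varied more in proportion. Skor1 (chr9:63138164-63148961), a corepressor of dorsal horn excitatory neurons, held 5.7, 4.96 and 4.96 CPM in brain and 77, 103 and 94.1 CPM in spinal cord (log2 fold change -4.13 ± 0.16 (SE), adjusted p = 1.35e-05). Tfap2a (chr13:40713802-40738238), a factor of dorsal interneurons and the neural crest, held 16.5, 25.5 and 51.5 CPM and 155, 141 and 137 CPM. Lhx1, a LIM factor of several interneuron classes, held 32.8, 35.1 and 52.3 CPM and 75.4, 69.4 and 85.5 CPM (log2 fold change -0.94). In the brain SMA library 3 was the highest for both Tfap2a and Lhx1. Gata3, a factor of a class of ventral inhibitory interneurons that also marks midbrain GABAergic neurons, went the other way with 29.8, 38 and 47.4 CPM in brain and 23.6, 28.1 and 26.2 CPM in spinal cord (log2 fold change 0.57 ± 0.18 (SE), adjusted p = 0.0363). Its call was lost without SMA brain library 2 or 3 or without SMA spinal cord library 1 or 3 (log2 fold change 0.40 to 0.73).

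Aldh1a2 (chr9:71215789-71296243) makes retinoic acid and is expressed in a subset of spinal motor neurons and in the meninges. It had 0 footprints in all 3 SMA brain libraries and 28.5, 21.7 and 18.8 CPM in SMA spinal cord, 459 counts in all. With a floor of 3 counts for each brain library, its level in spinal cord was at least 31.5-fold higher (adjusted p = 8.66e-05 in edgeR). Of the 3849 called genes, 15 had 0 footprints in all SMA brain libraries and 0 had none in all SMA spinal cord libraries. Over all 10481 genes, called or not, these numbers were 123 and 13. The part of library depth in this imbalance was not tested. Aldh1a2 was the only member with a name on the list of motor neuron and cholinergic genes, so that list gives no other value here.

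The neurofilament subunits, structural proteins of large axons, were higher in spinal cord. Nefm (chr14:68119545-68125004) held 111, 115 and 164 CPM in SMA brain and 587, 668 and 616 CPM in SMA spinal cord (log2 fold change -2.26 ± 0.15 (SE), adjusted p = 3.58e-05). Nefl (chr14:68083863-68089095), its neighbor on the chromosome, held 49.1, 51.6 and 75.7 CPM and 263, 287 and 259 CPM (log2 fold change -2.20 ± 0.16 (SE), adjusted p = 6.2e-05). For both, brain library 3 was the highest of the brain libraries and still less than any spinal cord library. Nes (chr3:87971093-87980451), the intermediate filament nestin of neural progenitors, went the other way, with 327, 294 and 245 CPM in brain and 112, 112 and 138 CPM in spinal cord (log2 fold change 1.26 ± 0.13 (SE), adjusted p = 0.000316).

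Of 7 named neurotransmitter genes, 5 were higher in spinal cord and 0 higher in brain (median log2 fold change -0.51). Grin2d (chr7:45831883-45871194), an NMDA receptor subunit, held 19.5, 19.1 and 18.4 CPM in brain and 70.5, 57.7 and 56.5 CPM in spinal cord (log2 fold change -1.70 ± 0.13 (SE), adjusted p = 6.2e-05). Glra2, the glycine receptor subunit of embryonic neurons, held 15.2, 21.9 and 21.5 CPM and 48.7, 37.1 and 45.5 CPM (log2 fold change -1.16). The AMPA receptor subunit Gria3 and the GABA-A receptor subunit Gabra2 were higher in spinal cord by smaller amounts (log2 fold change -0.67 and -0.44). Gria1 and Gabrb2 did not pass, with -0.25 and 0.15. Synaptic vesicle genes were higher in spinal cord in 4 of 6 named members (median -0.46). Syn2, a synapsin that tethers vesicles, held 83, 89.7 and 105 CPM in brain and 210, 193 and 191 CPM in spinal cord (log2 fold change -1.10 ± 0.11 (SE), adjusted p = 0.000227), and the vesicle GTPase Rab3b held 36.3, 40.2 and 48.2 CPM and 79.7, 85.4 and 82.2 CPM. The SNARE genes Vamp2 and Stx1a lay at -0.51, adjusted p = 0.0101 and -0.35, adjusted p = 0.13. Vamp2 lost its call without SMA brain library 2 (-0.46), and Stx1a gained one without SMA spinal cord library 1 (-0.44).

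Genes of axon growth and the neuronal microtubule skeleton lay near the median of all genes. Of 6 named members, 0 were called in either direction and their median log2 fold change was 0.10. Map2, the microtubule protein of dendrites, held 3540, 3080 and 3350 CPM in brain and 2700, 3100 and 3120 CPM in spinal cord. Mapt, which encodes tau, held 1790, 1500 and 1820 CPM and 1450, 1970 and 1710 CPM. The libraries of the tissues overlapped for both. The log2 fold changes of the 6 genes lay between -0.10 and 0.25, and DESeq2 called 1 of them higher in brain, while 1 of the 6, Nrcam, did not overlap between the tissues. Among the named genes with the smallest p, chosen after their values were seen, 3 more that are associated with neurons were higher in spinal cord. Eno2, the neuronal enolase, held 148, 153 and 137 CPM in brain and 451, 446 and 434 CPM in spinal cord (log2 fold change -1.60 ± 0.08 (SE), adjusted p = 1.49e-05). Ckmt1, the mitochondrial creatine kinase, held 51, 64.5 and 60.3 CPM and 252, 238 and 231 CPM. Fgf12, which binds voltage-gated sodium channels, held 25.8, 23.9 and 26.4 CPM and 74.5, 80 and 75.4 CPM. In each of the 3 the tissues were well separated and the libraries of a tissue lay close together.

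Genes of cell division were higher in brain. Of 18 named genes of mitosis and the cell cycle, 15 were called higher in brain and 0 higher in spinal cord, with a median log2 fold change of 2.08. Cdc20 (chr4:118432901-118437343), which activates the anaphase-promoting complex, held 61.6, 70.7 and 56.2 CPM in SMA brain and 11.4, 6.92 and 8.94 CPM in SMA spinal cord (log2 fold change 2.77 ± 0.19 (SE), adjusted p = 4.04e-05). Ccnd2 (chr6:127125162-127152188), the D-type cyclin of radial glia, held 254, 268 and 235 CPM and 60.1, 39.6 and 47.4 CPM (log2 fold change 2.35 ± 0.15 (SE), adjusted p = 3.32e-05). Cdk1 (chr10:69335146-69352912), the kinase that drives entry into mitosis, held 91.4, 112 and 92.8 CPM and 31.1, 16 and 23.4 CPM. In all 3 genes spinal cord library 1 was the highest of its group and still below the lowest brain library. Top2a, the topoisomerase that untangles chromosomes, held 149, 157 and 141 CPM and 40.9, 21.3 and 31.8 CPM. Ube2c, the ubiquitin-conjugating enzyme of the same complex that Cdc20 activates, held 82.5, 91 and 84.8 CPM and 21.4, 16.3 and 21.9 CPM, and Aurkb, the kinase of the chromosomal passenger complex, held 56.7, 59.5 and 60.6 CPM and 15.2, 11.7 and 7.96 CPM. The kinesins Kif11 and Kif20a and the condensin subunit Ncapg had log2 fold changes of 2.32, 2.41 and 2.22. Cdkn1b, an inhibitor of cyclin-dependent kinases that is high in cells leaving the cycle, was also higher in brain (1.18 ± 0.13 (SE), adjusted p = 0.000429). The 3 members that did not pass were Rb1 (-0.09), E2f2 (0.59) and Ccne1 (-0.80, adjusted p = 0.0657). Ccne1 was called higher in spinal cord without SMA brain library 2 (log2 fold change -1.07), with filterByExpr, with robust estimation and in the fit over 12 libraries.

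Each of the 15 named genes of DNA replication licensing and the replication fork was called higher in brain, with a median log2 fold change of 1.48. Uhrf1 (chr17:56303337-56323486), which brings the maintenance methyltransferase to newly copied DNA, held 232, 229 and 220 CPM in SMA brain and 47.2, 37.9 and 33.6 CPM in SMA spinal cord (log2 fold change 2.51 ± 0.13 (SE), adjusted p = 1.84e-05). Mcm5 (chr8:75109468-75128439), a subunit of the replicative helicase, held 142, 144 and 155 CPM and 49.2, 39.4 and 36.9 CPM (log2 fold change 1.81 ± 0.13 (SE), adjusted p = 4.18e-05). Its partners Mcm2 and Mcm4 had log2 fold changes of 1.76 and 0.96. The loading factor Cdc6 held 17.6, 24.6 and 22 CPM in brain and 6.2, 3.85 and 3.74 CPM in spinal cord, and its partner Cdt1 held 27.7, 29.8 and 19.5 CPM and 10.8, 3.65 and 12.8 CPM. The call of Cdt1 was lost without SMA brain library 1 or 2 (log2 fold change 1.13 to 1.79). The remaining differences ran from 0.69 for Dnmt1, which is also expressed in postmitotic neurons, to 2.20 for Rrm2, the ribonucleotide reductase subunit of S phase. Without SMA spinal cord library 1, 15 of 18 and 15 of 15 members of these lists were again called higher in brain.

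**Figure D3:**
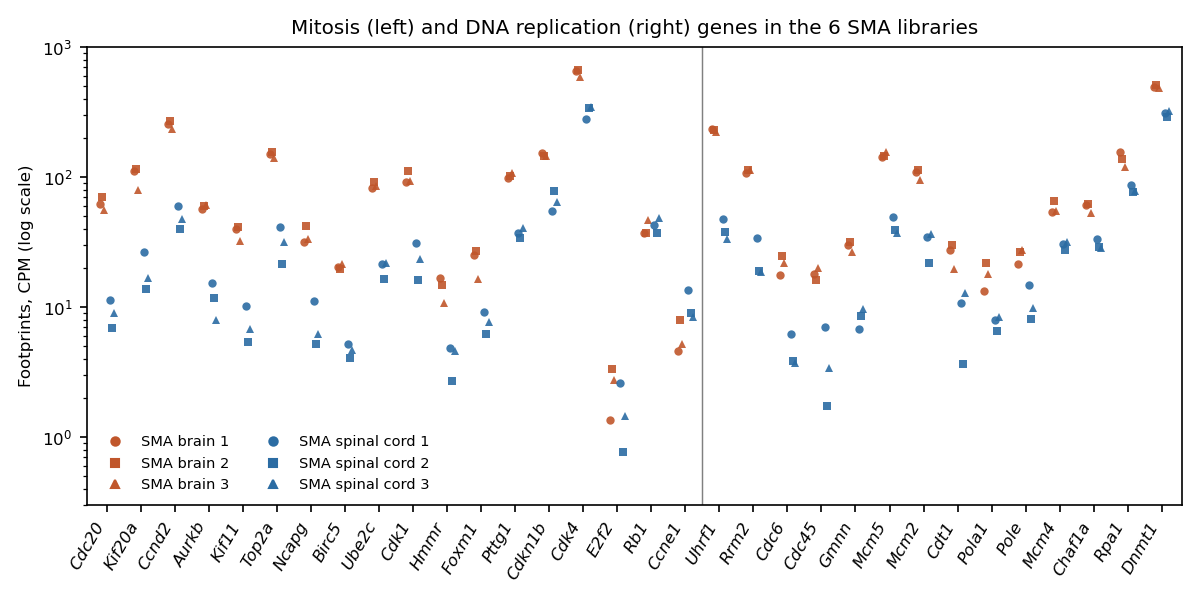
CPM on a log scale for the 18 named mitosis genes (left of the line) and 14 of the 15 named DNA replication genes (right), with 1 point for each of the 6 SMA libraries and genes ordered by fold change within each list. Brain points lie above spinal cord points in every called gene shown, Rb1 and E2f2 overlap, and Ccne1 lies the other way.

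The DNA before the promoter starts of these genes was searched for motifs that recur in cell cycle promoters, in RefSeq promoters on GRCm38.p6. The motifs were the CHR element (TTTGAA), the CCAAT box (CCAAT) and a pair of E2F sites (TTTCCCGC or TTTGGCGC), on both strands and without mismatch, in the 250 bases before the start listed for each promoter. That start can lie inside the gene. For Cdc6, Pttg1 and some promoters of Dnmt1 and Uhrf1, 0 of these bases lay before the first annotated start of the gene. No motif contains another. Of the 15 called mitosis genes 11 had a promoter in the table, 1 each, and of the 15 replication genes 11, with 14 promoters. The CHR element was present in 6 of 11 mitosis promoters (54.5%) and 3 of 14 replication promoters (21.4%), against 16% of all 32851 promoters. CCAAT was present in 72.7% and 78.6% of them, against 33.8%. An E2F site was present in 0 of 11 mitosis promoters and in 3 of 14 replication promoters (21.4%), those of Mcm5, Cdc6 and Pola1, against 1.3%. In Cdc6 and Pola1 the match lay after the first annotated start of the gene. Lists and motifs were both chosen for the cell cycle, so a share above that of all promoters says nothing on the tissues. No test was made on so few promoters, and a match describes the letters and not a bound site. The promoters of 3 mitosis genes with the CHR element and of 1 replication gene with an E2F site are shown 5′ to 3′ along each gene, with matches to any of the motifs in capitals.
Cdc20 (chr4:118437344-118437593, minus strand): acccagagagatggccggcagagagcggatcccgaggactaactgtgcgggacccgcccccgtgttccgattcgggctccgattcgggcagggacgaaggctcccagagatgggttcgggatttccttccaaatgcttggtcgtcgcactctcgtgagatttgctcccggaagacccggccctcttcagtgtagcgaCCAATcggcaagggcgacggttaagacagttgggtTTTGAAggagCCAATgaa
Cdk1 (chr10:69352913-69353162, minus strand): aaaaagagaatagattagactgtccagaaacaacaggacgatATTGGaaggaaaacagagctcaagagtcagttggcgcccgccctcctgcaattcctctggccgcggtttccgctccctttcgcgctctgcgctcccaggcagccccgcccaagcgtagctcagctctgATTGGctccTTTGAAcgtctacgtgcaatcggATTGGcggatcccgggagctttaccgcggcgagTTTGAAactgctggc
Ube2c (chr2:164769679-164769928, plus strand): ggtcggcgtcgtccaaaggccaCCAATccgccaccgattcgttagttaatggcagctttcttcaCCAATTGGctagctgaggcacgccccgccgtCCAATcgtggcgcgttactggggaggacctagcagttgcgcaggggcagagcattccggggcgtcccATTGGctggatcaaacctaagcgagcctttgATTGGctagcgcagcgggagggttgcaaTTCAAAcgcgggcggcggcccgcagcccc
Mcm5 (chr8:75109259-75109467, plus strand): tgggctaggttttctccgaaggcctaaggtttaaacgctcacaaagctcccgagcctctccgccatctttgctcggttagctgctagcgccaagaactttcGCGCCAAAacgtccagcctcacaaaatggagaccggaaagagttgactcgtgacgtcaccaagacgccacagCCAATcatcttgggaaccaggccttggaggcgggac
In Cdc20 a CHR element stands just before the start with CCAAT boxes on either side of it, and in Ube2c it follows several CCAAT boxes. In Mcm5, of which only the bases before the first annotated start are printed, the E2F site lies before a CCAAT box.

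Progenitor and glial genes were called in both directions. Of 10 named genes of radial glia and neural stem cells, 3 were called higher in brain, namely Lhx2, Nes and Id4, and 5 higher in spinal cord. Id4 had a small difference (0.35, adjusted p = 0.026, and 0.0531 with the replicate number as a block), and its call was lost without SMA brain library 1, 2 or 3 or without SMA spinal cord library 1 (log2 fold change 0.28 to 0.41). Bcan (chr3:87987531-88002175), the proteoglycan brevican of glial precursors and astrocytes, held 39.3, 37.5 and 41.6 CPM in SMA brain and 175, 178 and 190 CPM in SMA spinal cord (log2 fold change -2.20 ± 0.09 (SE), adjusted p = 1.37e-05). The glutamate transporter Slc1a3 held 86.5, 92.6 and 107 CPM and 299, 239 and 284 CPM (log2 fold change -1.52 ± 0.12 (SE), adjusted p = 8.34e-05). Aldoc, an aldolase of astrocytes, held 181, 177 and 154 CPM and 337, 365 and 350 CPM. Each of these glial genes was higher in every spinal cord library than in any brain library. Slc1a2 and Id3 were higher in spinal cord (log2 fold change -0.72 and -0.68), and Id3 was not called without SMA brain library 2 (-0.59). Fabp7, expressed in radial glia of both tissues, did not pass (0.19, adjusted p = 0.295), and Ednrb passed with the replicate number as a block (adjusted p = 0.0486) but not without it (-0.47, adjusted p = 0.0546).

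The list of gliogenic genes shares Bcan, Slc1a2, Slc1a3 and Fabp7 with the list above. Of 9 named members, 6 were higher in spinal cord and 2, Sox9 and Nfib, higher in brain. Apoe, the apolipoprotein of astrocytes and liver, held 245, 224 and 239 CPM in brain and 933, 504 and 465 CPM in spinal cord, and its difference was -1.43 with SMA spinal cord library 1 and -1.04 without it. Sox9, which starts gliogenesis and is also a cartilage factor, held 88.4, 88.9 and 74.1 CPM in brain and 52.3, 50 and 53.9 CPM in spinal cord (log2 fold change 0.69 ± 0.10 (SE), adjusted p = 0.00178).

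Genes of neurogenic commitment were higher in brain in 6 of 10 named members and higher in spinal cord in 2. Gadd45g, which rises in newborn neurons, held 53.4, 56.4 and 45.2 CPM in SMA brain and 14.4, 13.3 and 14.5 CPM in SMA spinal cord (log2 fold change 1.88 ± 0.13 (SE), adjusted p = 4.18e-05). Btg2, a marker of progenitors about to make neurons, held 15.5, 17.8 and 17.1 CPM and 9.79, 9.04 and 8.45 CPM. The tissues were separated in both. The Notch ligand Dll1, Myt1 and the neuronal RNA-binding protein Elavl3 were higher in brain by 0.55, 0.75 and 0.32, and Dll3 and Elavl2 did not pass (0.22 and -0.20). Without SMA brain library 1 or 2 Dll1 was not called (log2 fold change 0.42 to 0.65), and neither was Elavl3 without SMA brain library 1, 2 or 3 or without SMA spinal cord library 3 (0.26 to 0.37). Ebf3 and Ebf2, factors of early differentiating neurons, were higher in spinal cord. Ebf3 held 294, 304 and 466 CPM in brain and 605, 769 and 760 CPM in spinal cord (log2 fold change -1.01 ± 0.18 (SE), adjusted p = 0.00394). The call of Ebf2 (-0.60) was lost without SMA brain library 1 or 2 or without SMA spinal cord library 2 or 3 (log2 fold change -0.79 to -0.44).

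Cilium genes were called in both directions. Of 3 named genes of the ciliary transition zone, the gate at the base of the cilium, 1 was called higher in each tissue. Over all named genes, 17.3% were higher in brain and 23.2% in spinal cord, so 1 of 3 either way says little about the family. Ahi1 (chr10:20952232-21080429), the jouberin gene, held 186, 191 and 203 CPM in SMA brain and 364, 341 and 364 CPM in SMA spinal cord (log2 fold change -0.88 ± 0.08 (SE), adjusted p = 0.000119). Cep290 (chr10:100487548-100575671) held 24.4, 31.4 and 30.8 CPM and 18.6, 6.73 and 17.7 CPM (log2 fold change 1.00 ± 0.33 (SE), adjusted p = 0.0482). Its call was lost without SMA brain library 1, 2 or 3 or without SMA spinal cord library 3 (log2 fold change 0.67 to 1.22), and in control embryos its difference was -0.29 (adjusted p = 0.53). The test of that difference between genotypes gave 1.28 ± 0.54 (SE) with an adjusted p of 1. Tmem107 did not pass (0.39, adjusted p = 0.302). Of 8 named genes of intraflagellar transport and the BBSome, Ift43 and Ift46 were called higher in brain and 0 higher in spinal cord (median 0.07). These 25% lay near the 17.3% of all named genes. Ift43, a subunit of the retrograde complex, held 50.2, 60.1 and 62.2 CPM and 25.5, 37.1 and 34.6 CPM (log2 fold change 0.83 ± 0.16 (SE), adjusted p = 0.00524). Ift46 differed by 0.29, adjusted p = 0.0212, a call lost without SMA brain library 1 or 2 or without SMA spinal cord library 3 (log2 fold change 0.26 to 0.33). The anterograde motor subunit Kif3a overlapped between tissues, with 459, 448 and 523 CPM in brain and 516, 590 and 546 CPM in spinal cord.

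In the pathways that signal through or beside the cilium, Ptch1 (chr13:63508328-63573460), the Hedgehog receptor and itself a target of the pathway, held 52.1, 43.9 and 57 CPM in SMA brain and 142, 111 and 121 CPM in SMA spinal cord (log2 fold change -1.30 ± 0.14 (SE), adjusted p = 0.000289). It was the only named member of the Hedgehog list. Of 5 named Wnt genes, 3 were higher in brain and 1 higher in spinal cord. The ligand Wnt7b held 93.9, 113 and 97.5 CPM in brain and 43.5, 43.1 and 49.4 CPM in spinal cord (log2 fold change 1.16 ± 0.11 (SE), adjusted p = 0.000186). The transducer Ctnnb1 (chr9:120933400-120960507), which encodes β-catenin, held 2690, 2530 and 2670 CPM and 1380, 1370 and 1430 CPM (log2 fold change 0.92 ± 0.05 (SE), adjusted p = 1.79e-05). Every brain library was above every spinal cord library for both genes. Of the cytoplasmic adaptors, Dvl2 was higher in brain (0.70, adjusted p = 0.00957) and Dvl3 did not pass (0.01). Apc, a scaffold of the complex that degrades β-catenin, was higher in spinal cord (-0.36, adjusted p = 0.00812).

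Ribosomal protein genes were higher in brain by small amounts. Of 13 named members, 9 were called higher in brain and 1 higher in spinal cord, with a median log2 fold change of 0.44. Rps15a held 257, 239 and 254 CPM in SMA brain and 192, 205 and 183 CPM in SMA spinal cord (log2 fold change 0.37 ± 0.08 (SE), adjusted p = 0.00962), and Rpl19 held 125, 119 and 118 CPM and 72.4, 94 and 82.1 CPM (log2 fold change 0.54 ± 0.11 (SE), adjusted p = 0.00739). In both, every brain library was above every spinal cord library. Rpl10 went the other way, with 8.14, 9.55 and 11.3 CPM and 23.6, 16.2 and 18.7 CPM. Ribosomal protein genes have many near-identical pseudogenes and reads with several alignments were kept, so these levels are uncertain. Without SMA brain library 3 the number called higher in brain was 5. Of 10 named translation factors, 3 were called higher in brain and 2 higher in spinal cord. These shares of 30% and 20% lay near the 17.3% and 23.2% of all named genes. Eef1a2, the elongation factor isoform of mature neurons, held 87.1, 82.7 and 91.1 CPM in brain and 161, 181 and 163 CPM in spinal cord (log2 fold change -0.95 ± 0.09 (SE), adjusted p = 0.000214). Without each SMA library in turn, 0 or 1 of these factors was called higher in brain. The other 4 calls of that list had absolute log2 fold changes of at most 0.31, and those of Eif3d and Eif4g2 were lost with the replicate number as a block (adjusted p = 0.102 and 0.123). Each of these 2 was also called in only 1 of the 6 fits that left out 1 library (log2 fold change 0.22 to 0.26 and 0.17 to 0.24).

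Among partners of SMN, which assembles Sm proteins onto small nuclear RNAs, 3 of 4 named members were called higher in brain. Snrpd1 held 166, 142 and 161 CPM in SMA brain and 88.6, 102 and 107 CPM in SMA spinal cord (log2 fold change 0.66 ± 0.11 (SE), adjusted p = 0.00263). The Sm genes Snrpd3 and Snrpf differed by 0.54, adjusted p = 0.0374 and 0.55, adjusted p = 0.0239. The call of Snrpd3 was lost without SMA brain library 1, 2 or 3 or without SMA spinal cord library 3 (log2 fold change 0.36 to 0.70), and that of Snrpf without SMA brain library 1, 2 or 3 or without SMA spinal cord library 3 (0.40 to 0.68). Wdr77, a subunit of the methylosome that modifies Sm proteins, overlapped, with 71.1, 74.8 and 67.5 CPM and 71.9, 73.3 and 80.1 CPM. The 3 Sm genes had differences of 0.66, 0.67 and 0.70 between tissues of control embryos.

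Markers of other cell types were examined beside these results. Of 4 named genes of the meninges and fibroblast matrix, 4 were called higher in spinal cord (median -1.64, which does not depend on the bound for Aldh1a2). Col1a1, the collagen of fibroblasts, held 2.44, 4.78 and 2.48 CPM in SMA brain and 20.6, 20.6 and 8.12 CPM in SMA spinal cord (log2 fold change -2.30 ± 0.44 (SE), adjusted p = 0.00484). The summed level of the list was 513 to 594 CPM in brain and 702 to 814 CPM in spinal cord. Most of this was Sparc, with 500, 540 and 580 CPM in brain and 633, 744 and 675 CPM in spinal cord. Its log2 fold change was -0.34, and -0.39 to -0.28 over the fits that left out 1 library, of which 4 called it. Testing the list against a 1.5-fold difference left 2 calls. In controls 2 of the 4 genes were called higher in spinal cord, and Sparc was not among them (-0.13, adjusted p = 0.333 in edgeR). Vtn, the vitronectin of pericytes and liver, held 39.6, 44.7 and 44.1 CPM and 201, 166 and 165 CPM (log2 fold change -2.05 ± 0.12 (SE), adjusted p = 2.27e-05). Of the 3 named endothelial and pericyte genes, Vtn and the tight junction gene Ocln (-1.33) were called, and Esam passed with the replicate number as a block (adjusted p = 0.0398) but not without it (-0.61, adjusted p = 0.0711). Ngfr, the neurotrophin receptor of Schwann cells, sensory neurons and some motor neurons, held 5.43, 8.45 and 7.98 CPM in brain and 44.1, 38.7 and 35.4 CPM in spinal cord (log2 fold change -2.42 ± 0.19 (SE), adjusted p = 7.93e-05). It was the only called gene of the 3 named for Schwann cells and sensory ganglia, whose summed level was 389 to 455 CPM in brain and 363 to 467 CPM in spinal cord. Ngfr and Pmp22 were a small part of that sum, so it mostly followed 1 other gene. Pmp22 held 8.68, 19.3 and 12.4 CPM in brain and 21.9, 9.81 and 10.4 CPM in spinal cord. Endothelial and pericyte genes summed to 60.8 to 73.5 CPM in brain and 204 to 241 CPM in spinal cord, most of it from Vtn. The part of vessels, meninges and nerve roots in the differences above was not tested.

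Of 3 named microglial genes, Cd68 was higher in spinal cord (-2.28, adjusted p = 0.0199), with 0.271, 1.65 and 0.826 CPM in SMA brain and 7.56, 3.65 and 3.09 CPM in SMA spinal cord. Its call was lost without SMA brain library 1 or 3 (log2 fold change -3.07 to -1.72). The summed microglial level was 23.6 to 26.2 CPM in brain and 30.6 to 52.8 CPM in spinal cord, of which Cd68 was a small part. Of the 3 erythroid genes, Sptb, a spectrin that neurons share, was higher in spinal cord (-1.97), while the band 3 gene Slc4a1 held 3.8, 2.76 and 1.38 CPM in brain and 10.8, 2.69 and 3.57 CPM in spinal cord and did not pass. Erythroid genes summed to 7.16 to 9.22 CPM in brain and 20 to 32.7 CPM in spinal cord, where library 1 was the highest. Slc4a1 was the smaller part of that sum in every spinal cord library. In the choroid plexus list, Otx2 was higher in brain, Enpp2 was higher in spinal cord (-1.98, adjusted p = 5.16e-05), and Aqp1 passed with the replicate number as a block (adjusted p = 0.0192) but not without it (-2.58, adjusted p = 0.177). Of the cartilage genes, the collagen Col2a1 did not pass (0.13, adjusted p = 0.442) and the other, Sox9, is given above. The lists for skeletal muscle and for mitochondrially encoded genes had 0 named members.

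Among the 6 SMA libraries, liver transcripts were concentrated in spinal cord library 1. Apob, the main protein of very low density lipoprotein, held 33.4, 0.919 and 0.551 CPM in SMA brain and 915, 2.69 and 11.7 CPM in SMA spinal cord. Apoa2 held 3.53, 0 and 0 CPM and 116, 2.69 and 1.62 CPM, and Apoh, another plasma apolipoprotein, held 0.543, 0 and 0.275 CPM and 42.5, 0.962 and 1.46 CPM. In each of them library 1 was the highest of its group, in spinal cord and in brain. Only Apoh and Vtn of the 5 named members were called without a block (2 of 5), and with the replicate number as a block 4 of 5 were, at adjusted p-values of 3.84e-05 for Apob, 2.56e-05 for Apoa2 and 2e-04 for Apoh. The log2 fold changes of Apob, Apoa2 and Apoh were -4.85, -5.25 and -5.87 with all libraries and 0.57, -1.01 and -2.25 without spinal cord library 1. The call of Apoh was lost without SMA brain library 1, 2 or 3 or without SMA spinal cord library 1. The summed level of the list was 44.9 to 77.9 CPM in brain and 1280, 172 and 180 CPM in spinal cord. Vtn, which pericytes also make, held 39.6, 44.7 and 44.1 CPM of this in brain and 201, 166 and 165 CPM in spinal cord. It was thus most of the sum in brain and in spinal cord libraries 2 and 3, where the apolipoproteins were low. The forebrain factors Fezf2 and Nr2e1 were also highest in spinal cord library 1 among the spinal cord libraries, while its Nefl, Bcan and Hoxc6 levels were close to those of libraries 2 and 3. Each list count of the paragraphs above was recomputed without that library, and those for Hox, forebrain, mitosis and replication genes were the same. In controls, spinal cord library 3 was the highest of its group for Apoa2 (4.68, 0.379 and 45.8 CPM) and Apoh (2.07, 0 and 12.5 CPM). The comparison of control tissues thus also held a library with raised liver transcripts.

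**Figure D4:**
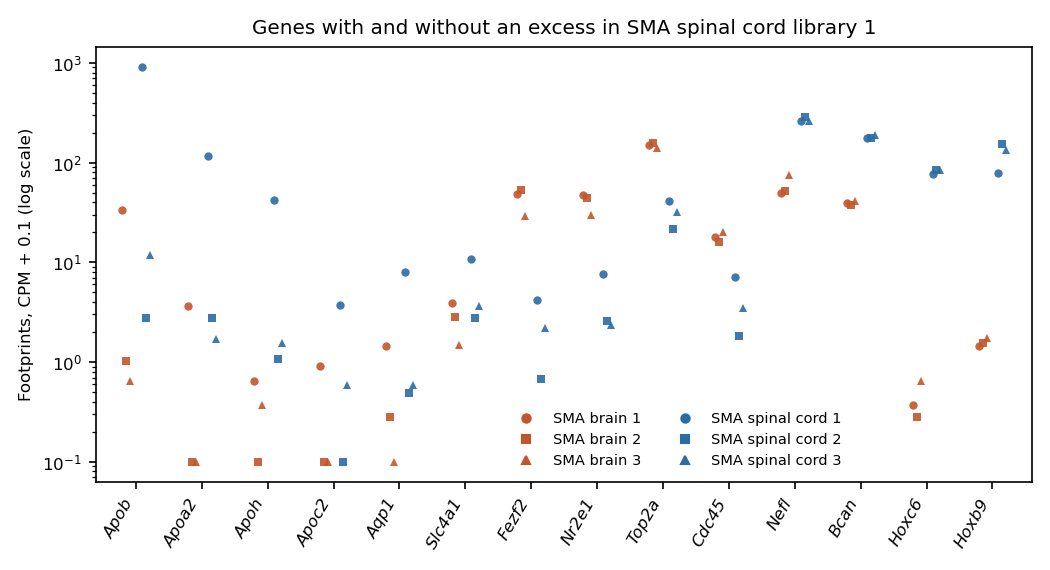
CPM + 0.1 on a log scale for genes of liver (Apob to Apoc2), choroid plexus (Aqp1), erythrocytes (Slc4a1), forebrain (Fezf2 and Nr2e1), dividing cells (Top2a and Cdc45) and spinal cord (Nefl to Hoxb9), with 1 point for each SMA library. The circle of SMA spinal cord library 1 lies above the other 2 spinal cord libraries for all genes from Apob to Cdc45, close to them for Nefl, Bcan and Hoxc6, and below them for Hoxb9.

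By rank over all genes, the smallest p toward brain belonged to ENSMUSG00000051243, a gene without a name at hand, with 2220, 2050 and 2220 CPM in SMA brain and 475, 406 and 473 CPM in SMA spinal cord (log2 fold change 2.26 ± 0.08 (SE), adjusted p = 4.69e-06). Toward spinal cord Hoxc6 had the smallest, followed by ENSMUSG00000048763 with 1.63, 0.735 and 1.1 CPM and 86, 86 and 75.7 CPM. ENSMUSG00000050368 had 0 footprints in SMA brain and 36.2, 42.7 and 44.2 CPM in SMA spinal cord, at least 56.2-fold higher by the same floor of 3 counts per brain library. Of named genes, Celf2 (chr2:6539694-7396341), an RNA-binding protein that regulates splicing in neurons, was among the 10 with the smallest p toward brain. It held 1290, 1360 and 1250 CPM in brain and 475, 518 and 458 CPM in spinal cord (log2 fold change 1.42 ± 0.07 (SE), adjusted p = 1.42e-05). Chosen after their values were seen, Nde1, a dynein partner needed for progenitor division, held 117, 97.6 and 85.4 CPM and 19.6, 23.8 and 23.9 CPM, and Tmpo, a protein of the nuclear lamina, held 463, 474 and 474 CPM and 212, 218 and 233 CPM. Both were higher in brain in all libraries. Sulf2, a sulfatase of extracellular heparan sulfate, was higher in spinal cord, with 237, 228 and 276 CPM in brain and 660, 730 and 685 CPM in spinal cord.

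The same comparison in control embryos, which shares no library with that in SMA, called 4029 genes (38.4%). Of the 10481 genes, 3013 (28.7%) were called in both genotypes with the same direction and 0 (0%) with opposite directions. These were 78.3% of the SMA calls and 74.8% of the control calls. Over 10132 genes with a mean of at least 1 CPM, the log2 fold changes correlated across genes at r = 0.92 and rho = 0.91, where genes are not independent replicates. Of the 1088 SMA calls of that size (a log2 fold change of 1 or more), 86.5% were called in control. The Hox median was -7.38 in control and -6.98 in SMA. For mitosis genes the medians were 1.37 and 2.08, for replication genes 1.13 and 1.48, and for forebrain factors 2.10 and 3.14, each with control given before SMA. Top2a, Kif11 and Ncapg had differences of 1.18, 1.31 and 1.44 in control, with adjusted p-values of 0.13, 0.0775 and 0.0594, against 2.23, 2.32 and 2.22 in SMA. Control spinal cord library 1 was far above the other control spinal cord libraries for these genes, with 162, 29.8 and 36.7 CPM of Top2a, 35, 8.05 and 8.24 CPM of Kif11 and 41.1, 6.82 and 14.4 CPM of Ncapg in libraries 1, 2 and 3. Its part in the lower control medians was not tested.

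Whether a regional difference depends on genotype is answered only by the test of that difference over all 12 libraries. It called 0 genes (0%) at an adjusted p below 0.05 in edgeR, with 249 (2.38%) at an unadjusted p below 0.05, and DESeq2 also called 0 and had 198 at an unadjusted p below 0.05. The smallest adjusted p was 1. For Top2a the difference of the differences was 1.05 ± 0.70 (SE), unadjusted p = 0.162 in edgeR. For Lhx9 it was 1.15 ± 0.44 (SE), unadjusted p = 0.0226 in edgeR. In simulated counts of the same depth and spread, this test recovered 51.5% of 200 genes given a 2-fold difference, against 69.5% for the comparison of tissues in SMA. In these simulated counts the test between genotypes missed about as many such differences as it found. Its recovery in the actual libraries was not tested and may differ, since SMA spinal cord library 1 stood apart from its group and deviated together with SMA brain library 1. The absence of calls therefore does not show that the regional differences were equal in the genotypes. The greater medians in SMA above are values and not a shown difference between genotypes.

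**Figure D5:**
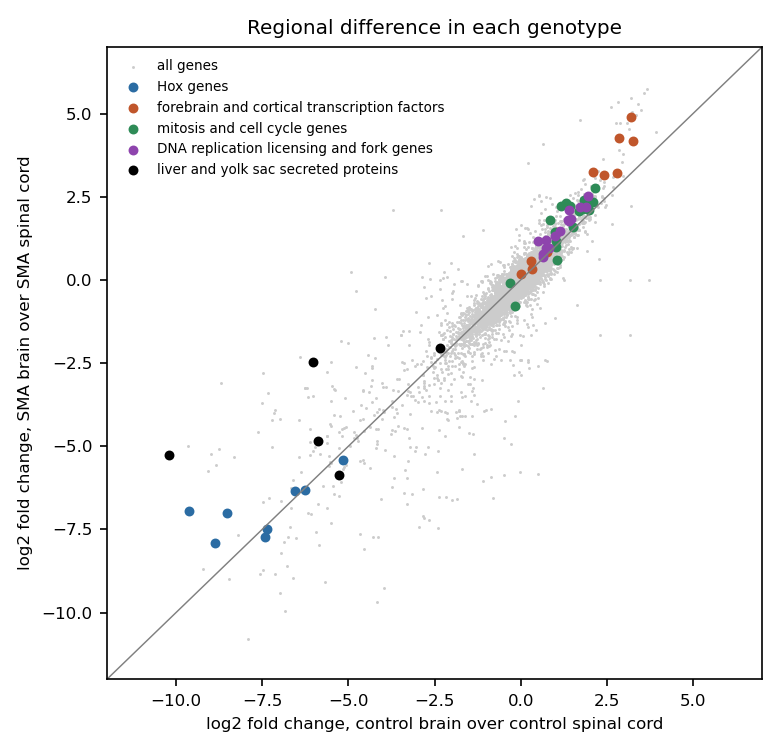
Log2 fold change of brain over spinal cord in SMA embryos (vertical axis) against that in control embryos (horizontal axis), with 1 point for each gene and the named members of 5 lists in color. Points lie along the diagonal line of equal values over most of the range, Hox genes at the lower left and forebrain factors at the upper right, and genes with few or 0 footprints in brain scatter widely at the left because their fitted values depend on the prior count.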

How the data were processed

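Ribosome profiling libraries of brain and spinal cord at E14.5 were used, 3 per tissue and genotype in 4 groups, 12 in all. The authors trimmed reads with cutadapt 4.1, removed rRNA and tRNA reads and aligned with STAR 2.5.3a to GRCm38 p6, allowing up to 5 alignments per read. They removed reads at duplicate positions before the positional analyses. Raw counts were deposited for the 10481 genes that passed an FPKM filter at the 80th percentile. The sources used here do not give the counting tool. Nor do they say whether the counts were made before or after that removal of reads. The filter took out low genes, so genes confined to few cells may be missing, and reads with several alignments can be split among gene families. Counts were fitted with edgeR 4.0.16 in R 4.3.3 (TMM factors, quasi-likelihood test, no block) on the 6 SMA libraries, and the 12 libraries together gave the difference between genotypes. P-values were adjusted by Benjamini-Hochberg over 10481 genes, and standard errors were taken from the fold change and its F statistic. Depth was 3683842 to 12793955 counts per library. Intervals and the floor of 3 counts cover counting error only.

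Same-numbered SMA brain and spinal cord libraries deviated together from their group means (r = 0.38, 0.15 and 0.16 for numbers 1, 2 and 3), while libraries of different number gave -0.32 to 0.22, so that number 1 alone paired above every other combination. As all 3 were above 0.1, the replicate number was also used as a block. No 2 libraries of a group agreed within sampling noise (chi-square per gene 3.85 to 23.1), and each was kept as a library of its own, which does not show that they came from separate embryos. Gene symbols were at hand for 1999 identifiers, from the study's supplementary tables. Coordinates and promoters came from RefSeq tables on GRCm38.p6, matched by symbol. The members and gene lists were chosen with earlier results of these data known. Named genes were the list members, the 10 genes per direction with the smallest p and the 10 with the largest fold among calls with separated tissues and a mean of at least 20 counts, the 3 smallest p per direction in the test between genotypes, and the 10 most occupied genes per kilobase in each tissue. Symbols were preferred to identifiers, and few identifiers were printed. A few list members counted in the list totals are not reported here by name. Alternatives were DESeq2 1.42.0, 2 other scalings, removal of a trend with counts per base, 2 filters on low counts, other edgeR settings, a fit over 12 libraries, the block, a minimum fold and leaving out each library. The script was tested on simulated data with 200 genes changed 2-fold, of which edgeR recovered 69.5% in the SMA comparison (12 unchanged genes called) and DESeq2 74.5% (29 called).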

Additional observations from a re-analysis of the deposited data

Results flagged for a closer look

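Ubp1, which encodes a transcription factor, was called higher in brain in SMA, while its control difference had the other sign and was not called. It was picked for its small p in the test between genotypes, so the values below are no separate evidence. It held 94.9, 86.4 and 85.4 CPM in SMA brain and 66.1, 61.7 and 71.3 CPM in SMA spinal cord (log2 fold change 0.42, adjusted p = 0.0118 in edgeR), against 83.2, 57.9 and 82 CPM in control brain and 95.9, 84.9 and 86.6 CPM in control spinal cord (-0.26, adjusted p = 0.193). The tissues did not overlap in either genotype, and the difference between genotypes was 0.68 ± 0.19 (SE), adjusted p = 1 in edgeR (unadjusted p = 0.00353).

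ENSMUSG00000078784 held 57.2, 58.4 and 56.7 CPM in SMA brain and 50.2, 53.5 and 49.6 CPM in SMA spinal cord (log2 fold change 0.17, adjusted p = 0.163 in edgeR). In controls it held 43.1, 43.5 and 42.7 CPM in brain and 56.9, 50.3 and 57.3 CPM in spinal cord (-0.35, adjusted p = 0.0292). The difference between genotypes was 0.52 ± 0.11 (SE), adjusted p = 1 in edgeR (unadjusted p = 0.000737).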

How the results depend on the processing

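Among 245 genes whose values were recomputed under each alternative, no called gene changed sign, 58 lost their call in at least 1 alternative and 24 gained one. Some genes that were not called did change sign, such as Map2 (0.16 to -0.09) and Fabp7 (0.19 to -0.10) after removal of a trend in counts per base. Testing against a 1.5-fold difference (glmTreat) left 968 genes, 400 higher in brain and 568 higher in spinal cord. The other alternatives that kept all libraries called 3138 to 4230 genes, with DESeq2 at 3667 (95 genes had no adjusted p). Leaving out 1 library called 2628 to 4092 genes, 1170 to 1893 higher in brain and 1458 to 2199 higher in spinal cord, lowest in all 3 without SMA brain library 1. Removing a trend of fold change with counts per base changed the sign of 5 calls among all genes. The share of calls that were higher in brain was 46.9% (exact binomial interval 45.3 to 48.5), and it was 44.2% with library sizes alone, 57.5% with upper-quartile factors, 41.3% with glmTreat, 41.6% with the study's thresholds, and 42 to 46.4% without 1 library.

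With the replicate number as a block 3745 genes were called, 3416 of them shared in direction, and the share was 43.2%. Among the genes named in the text, the block changed no call besides those given with their results. In controls, calls ran from 2550 to 3848 without 1 library (2550 without brain library 2, 2596 without brain library 3) against 4029. For the difference between genotypes no alternative called a gene, the smallest adjusted p lay between 0.55 and 1, and the number at an unadjusted p below 0.05 ran from 190 to 423 without 1 library, with 423 without control brain library 1 and 413 without SMA spinal cord library 1. The cause of these changes was not tested. Genes with few footprints in brain have fold changes set by counting error.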

Other observations

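Several named genes outside the lists were also far apart between the tissues and are given as values, chosen after these were seen. Col14a1, a collagen of fibrous tissue, held 5.43, 5.88 and 2.48 CPM in SMA brain and 84.2, 58.9 and 79.9 CPM in SMA spinal cord (log2 fold change -3.97 ± 0.27 (SE), adjusted p = 3.77e-05 in edgeR). Gpx3, a secreted glutathione peroxidase, held 3.8, 8.27 and 7.43 CPM and 52.7, 46 and 44.2 CPM. Cartpt, a neuropeptide precursor, held 5.43, 3.67 and 1.93 CPM and 17.7, 22.1 and 21.3 CPM. In all 3 genes every spinal cord library was above every brain library, and the control differences were -3.96, -2.83 and -2.47. Rarres2, which encodes chemerin, held 15.5, 1.15 and 2.76 CPM in SMA spinal cord, where library 1 was the highest, and its log2 fold change was -3.49 with that library and -1.81 without it.

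Among named genes outside the lists with large folds toward brain, also chosen after their values were seen, Spag5, a spindle protein, held 24.4, 35.3 and 37.7 CPM in SMA brain and 3.47, 6.92 and 6.34 CPM in SMA spinal cord (log2 fold change 2.56 ± 0.29 (SE), adjusted p = 0.000404 in edgeR), and Gtse1, which is made in G2, held 17.1, 24.8 and 18.2 CPM and 5.21, 3.08 and 2.92 CPM. Spag5 was lowest in spinal cord library 1. Raver1 stood among the most occupied genes per kilobase, at 3470 CPM per kilobase in brain and 2090 in spinal cord, on a listed gene length of 11 bases, so its value per length is not comparable with those of other genes.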
